A study of Mus musculus with 20 samples.

Results

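Adipokines and the genes that define an adipocyte were followed in the liver and white adipose tissue (WAT) of obese mice with and without CD44, a receptor for the matrix polysaccharide hyaluronan. The 10 genes were Adipoq, Lep, Retn, Cfd, Rbp4, Nampt, Pparg, Cebpa, Slc2a4 and Adipor2. Every probe other than a control that carried the name of one of them in the array files, or matched it by accession (Cfd is listed there as Adn), was taken, which gave 15 of 41174 probes, and the arrays carry 28786 gene names in all. Each gene was read by its brightest probe, and the other probes of Retn, Nampt, Cebpa and Adipor2 are given beside it. The samples were RNA from male C57BL/6 mice, 7 months old, that were either wild type or CD44 knockout. All of them had received a diet with 35% fat for 21 weeks, and no lean group was read. There were 5 arrays for each genotype in each tissue, 20 in all, with no pooling named. CD44 was deleted in the whole animal, from a line that the study's methods describe as backcrossed to C57BL/6J. The array labels do not name the depot of the WAT. Each array reads a whole tissue with the blood vessel, immune and stromal cells in it. In such a sample, fewer cells of a type and less RNA per cell cannot be told apart.

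Adipocytes store triglyceride and secrete proteins that signal to other organs. Adiponectin (Adipoq) is a hormone of fat that acts in liver and muscle through receptors such as AdipoR2 (Adipor2), and leptin (Lep) reports the size of the fat store to the brain. Resistin (Retn) and complement factor D, or adipsin (Cfd), come largely from fat in mice, while retinol binding protein (Rbp4) and the NAD-synthesizing enzyme visfatin (Nampt) are made in many tissues, Rbp4 above all in liver. PPARγ (Pparg) and C/EBPα (Cebpa) are the transcription factors that drive and maintain the adipocyte state, and GLUT4 (Slc2a4) is the glucose transporter that insulin moves to the cell surface in fat and muscle.

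The arrays read these messages through 60-base probes, and those below are shown because the values of Retn, Cebpa and Adipor2 differ with the probe used, with the Adipoq probe beside them. Capitals in the pair of Retn probes mark the 22 bases that the probes share. By the files' positions, in build mm7 (NCBI35), the Adipoq probe lies on chromosome 16 from 22816125 to 22816184. The brightest Retn probe spans 3618519 to 3619340 on chromosome 8 and its partner 3618557 to 3619378, spans longer than a probe, since each crosses a gap between exons. The dimmer Cebpa probe lies on chromosome 7 from 32010056 to 32010115, and the dimmer of the Adipor2 probes shown spans 119384625 to 119386974 on chromosome 6.
Adipoq: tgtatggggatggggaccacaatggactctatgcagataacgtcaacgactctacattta
Retn, brightest: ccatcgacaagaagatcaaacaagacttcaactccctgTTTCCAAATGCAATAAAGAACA
Retn, other: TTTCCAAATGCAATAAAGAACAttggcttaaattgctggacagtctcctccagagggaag
Cebpa, other: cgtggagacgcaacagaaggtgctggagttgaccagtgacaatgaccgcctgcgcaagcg
Adipor2, other: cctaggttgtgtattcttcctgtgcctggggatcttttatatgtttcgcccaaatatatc

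Promoters are shown for genes at the extremes of the contrast between fat and liver, Adipoq and Lep on one side and Rbp4 on the other, and for the most downstream start of Pparg. Each run is the 250 bases before a RefSeq start of GRCm38.p6, and 9 of the 10 genes matched that table with 12 starts in all (Slc2a4 had none). Capitals mark TTGCNNAA, a core of the sites bound by C/EBP factors, TATAAA, the GC box GGGCGG and the CCAAT box, searched on both strands. No matches overlapped in the runs printed. The Lep promoter holds TTGCNNAA 55 bases before the start, and the Pparg start holds it 215 and 16 bases before the start. The Rbp4 start shown holds TTGCNNAA at 128 bases and TATAAA at 28 bases, and Adipoq holds CCAAT 3 times. Of the 32851 promoters in the table, 9.56% hold TTGCNNAA in the same window, 12.4% hold TATAAA, 32.7% hold GGGCGG and 33.8% hold CCAAT. Among the 12 starts of these genes 3 hold TTGCNNAA, all of them printed. The other starts of Rbp4 and Pparg do not hold it. TATAAA is in 3 of the 12, GGGCGG in 5 and CCAAT in 4. A match describes the letters only.
Adipoq, chr16:23146286-23146535, + strand: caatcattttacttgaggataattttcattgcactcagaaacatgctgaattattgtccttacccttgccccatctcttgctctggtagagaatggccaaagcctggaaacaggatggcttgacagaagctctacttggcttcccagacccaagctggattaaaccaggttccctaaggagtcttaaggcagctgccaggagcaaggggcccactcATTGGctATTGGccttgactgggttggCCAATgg
Lep, chr6:29059971-29060220, + strand: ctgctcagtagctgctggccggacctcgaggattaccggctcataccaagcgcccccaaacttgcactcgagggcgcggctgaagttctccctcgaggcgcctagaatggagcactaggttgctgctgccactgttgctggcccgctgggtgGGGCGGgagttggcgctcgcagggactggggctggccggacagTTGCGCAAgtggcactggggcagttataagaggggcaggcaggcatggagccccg
Pparg, chr6:115421816-115422065, + strand: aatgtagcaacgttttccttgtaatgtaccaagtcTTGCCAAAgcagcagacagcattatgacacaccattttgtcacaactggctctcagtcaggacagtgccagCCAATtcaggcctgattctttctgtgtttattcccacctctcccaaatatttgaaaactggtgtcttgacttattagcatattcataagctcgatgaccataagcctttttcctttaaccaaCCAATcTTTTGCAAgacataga
Rbp4, chr19:38124812-38125061, - strand: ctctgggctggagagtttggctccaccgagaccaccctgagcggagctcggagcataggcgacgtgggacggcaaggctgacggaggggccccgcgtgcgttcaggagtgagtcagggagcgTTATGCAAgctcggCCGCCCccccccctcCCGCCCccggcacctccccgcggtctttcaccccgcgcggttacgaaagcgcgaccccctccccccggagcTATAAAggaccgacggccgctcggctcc

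All levels below are log2 processed signals minus the 75th percentile of the array, so that 0 stands for that percentile. They compare the same probe between samples and are never set between genes, whose probes differ. The knockout was visible in every sample. The brightest Cd44 probe read 3.55 to 4.56 in WT(HFD) WAT against -0.67 to -0.35 in CD44KO(HFD) WAT, and 0.11 to 0.83 against -4.19 to -3.24 in liver. On 10 liver arrays 57.4% to 61.9% of the spots were well above background. WT(HFD) WAT replicate 1 stood apart from the other WAT arrays. On it 89.5% of the spots were well above background, against 63.2% to 69.5% on the other 9 WAT arrays, its median signal was 897 against 117 to 224, and its mean correlation with its own group was 0.836, against 0.937 to 0.983 for the others. WAT results are also given without it. The tissues had their defining messages. The 10 hepatocyte markers summed to 11.67 to 12.29 in liver and to 2.49 to 6.08 in WAT. Lep was not well above background on any liver array. Precision rests on the 5 arrays of a group, and no depth of reading applies.

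In WAT of CD44KO(HFD) mice all 10 genes had a higher mean than in WT(HFD) WAT, but none passed the test across all probes. The median log2 fold change (CD44KO(HFD) minus WT(HFD)) of the 10 genes was 0.67, beside -0.06 over the 27654 probes tested, of which 44.7% had a fold change above 0. With limma and Benjamini-Hochberg adjustment over all probes the adjusted p-values of the genes ran from 0.192 to 0.951. Few probes of any kind passed, 11 of the 27654 (0.0398%). At an unadjusted p under 0.05 there were 5 of the 10 genes (Lep, Rbp4, Pparg, Slc2a4 and Adipor2), where 14.9% of all probes were at that level. In 2 genes, Rbp4 and Pparg, the genotypes did not overlap, which was so for 6.14% of all probes. Without WT(HFD) replicate 1, 9 of the 10 genes had a higher mean, the median was 0.55 beside 0.04 over all probes, and none passed. Cebpa was the exception, and it also turned under quantile normalization (-0.15). Leaving out an array cannot make genotypes overlap that were apart, so it is no test of the lack of overlap of Rbp4 and Pparg. Centring each array on its median moved all probes together, to a median of 0.42, and raised the values of the 10 genes with them. The test did depend on how arrays were weighted and how the spread was estimated. With arrays weighted by their quality Lep and Rbp4 passed, at smaller fold changes of 0.69 and 0.49. CD44KO(HFD) replicate 5 then had a weight of 9.97, and the other WAT arrays had 0.09 (WT(HFD) replicate 1) to 3.04. In a fit of all 20 arrays Lep, Rbp4, Pparg and Adipor2 passed. The spread there was estimated over both tissues, for Lep with liver values at background. Far more probes of all kinds passed there too, 2850 with array weights and 1817 with all 20 arrays.

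**Figure D1:**
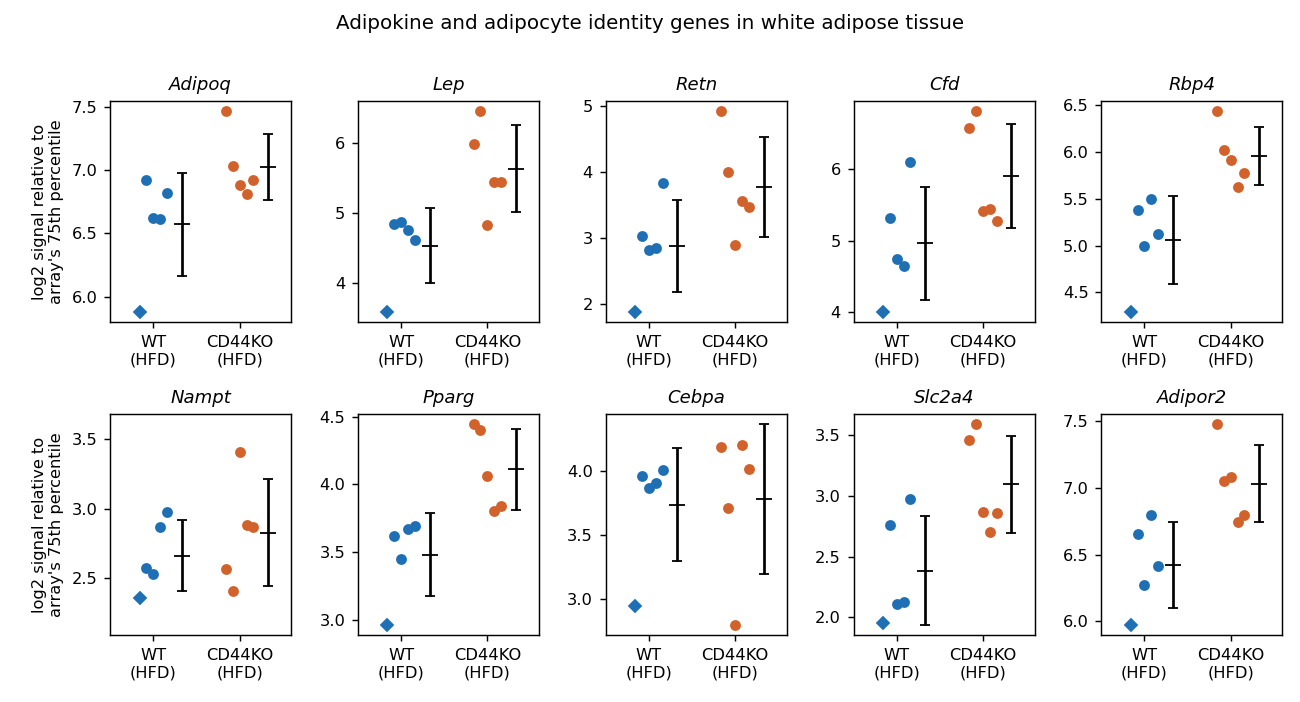
Log2 signal relative to the 75th percentile of the array (y axis, a scale of its own in each panel) of the 10 genes in WAT, by genotype (x axis). Each point is 1 array, the diamond is WT(HFD) replicate 1, the array that stands apart, and the black mark with its bars is the mean and SD of 5 arrays. Rbp4 and Pparg show no overlap between genotypes, and the diamond is the lowest WT(HFD) value in every panel.

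Leptin had the largest difference of the 10 genes in WAT. Lep (NM_008493, probe on chromosome 6 from 29005380 to 29005439) read 3.58, 4.84, 4.87, 4.76 and 4.62 in WT(HFD) replicates 1 to 5, and 5.99, 6.46, 4.83, 5.45 and 5.45 in CD44KO(HFD) replicates 1 to 5. The lowest CD44KO(HFD) array lay among the WT(HFD) arrays, and the other 4 lay above all of them. The log2 fold change was 1.10 (standard error, SE, 0.34, 95% interval 0.34 to 1.87, limma adjusted p = 0.218), with an exact permutation p of 0.024 (two-sided, over all relabellings of the 10 arrays). This probe is printed many times on the array, and its 8 to 10 spots on a WAT array had an SD of 0.03 to 0.08, far less than the spread between mice. Without WT(HFD) replicate 1 the fold change was 0.87 (limma adjusted p = 0.217). On the slide that held 2 arrays of each genotype the difference was 1.79, and on the slide with 3 WT(HFD) arrays and 1 CD44KO(HFD) array it was 0.06. WT(HFD) replicate 1 lies on the first of these slides, so the first within-slide value of each gene in WAT, here and below, includes it. The remaining WAT slide held 2 CD44KO(HFD) arrays and no WT(HFD) array, so slide and genotype cannot be fully told apart in WAT. The adjusted p passed with array weights (0.014, at a fold change of 0.69) and in the fit of all 20 arrays (0.025). It ran from 0.014 to 0.538 over the alternatives.

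Retinol binding protein was the adipokine whose genotypes were apart. Rbp4 (NM_011255, chromosome 19 from 37817322 to 37817381) read 4.29, 5.38, 5.00, 5.50 and 5.13 in the WT(HFD) arrays and 6.44, 6.03, 5.92, 5.62 and 5.78 in the CD44KO(HFD) arrays. Every CD44KO(HFD) array lay above every WT(HFD) array. The log2 fold change was 0.90 (SE 0.25, limma adjusted p = 0.192, and exact permutation p = 0.0079, the smallest that 5 against 5 allows). It was 0.70 without WT(HFD) replicate 1, and 1.005 and 0.75 on the slides that held both genotypes. The adjusted p was 0.045 with array weights (at a fold change of 0.49) and 0.015 in the fit of all 20 arrays, within a range of 0.015 to 0.538 over the alternatives.

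Adiponectin differed less. Adipoq (NM_009605) read 5.88, 6.92, 6.62, 6.61 and 6.82 in WT(HFD) WAT and 7.47, 7.03, 6.88, 6.81 and 6.92 in CD44KO(HFD) WAT. The genotypes overlapped, although all 5 CD44KO(HFD) arrays were above the WT(HFD) mean. Its log2 fold change was 0.45 (SE 0.22, 95% interval -0.04 to 0.94, limma adjusted p = 0.366, exact permutation p = 0.048), and without WT(HFD) replicate 1 it was 0.28. Within slides the difference was 0.73 and 0.09.

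Resistin and adipsin had wide spreads. Retn (NM_022984) read 1.87, 3.02, 2.81, 2.84 and 3.82 in WT(HFD) WAT and 4.92, 3.99, 2.89, 3.56 and 3.46 in CD44KO(HFD) WAT. Its log2 fold change was 0.89 (SE 0.42, limma adjusted p = 0.356), and the other Retn probe gave 0.98, with a correlation of 0.990 between the probes over the 10 WAT arrays. Within slides the difference was 1.37 and -0.32, so the slides did not show the same direction. Cfd (NM_013459, chromosome 10 from 79672573 to 79672632) ranged from 3.99 to 6.11 in WT(HFD) WAT and from 5.28 to 6.83 in CD44KO(HFD) WAT, a log2 fold change of 0.95 (SE 0.44, limma adjusted p = 0.351). On the slides with both genotypes it was 1.74 and 0.02. Nampt (NM_021524, chromosome 12 from 30690185 to 30690244) had the smallest difference among the adipokines, 0.17 (95% interval -0.31 to 0.64, limma adjusted p = 0.701), and its dimmer probe gave -0.12.

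Of the adipocyte transcription factors, Pparg had genotypes apart and Cebpa did not. Pparg (NM_011146, chromosome 6 from 115515909 to 115515968) read 2.96, 3.62, 3.45, 3.67 and 3.70 in WT(HFD) WAT and 4.45, 4.40, 4.06, 3.80 and 3.84 in CD44KO(HFD) WAT. All CD44KO(HFD) arrays lay above all WT(HFD) arrays, the nearest values being 3.80 and 3.70. The log2 fold change was 0.63 (SE 0.20, limma adjusted p = 0.225, exact permutation p = 0.0079), it was 0.50 without WT(HFD) replicate 1, and it was 0.80 and 0.47 within slides. Its adjusted p was 0.049 in the fit of all 20 arrays and ran from 0.049 to 0.538 over the alternatives. Cebpa (NM_007678, brightest probe on chromosome 7 from 32011212 to 32011271) read 2.95, 3.96, 3.87, 3.91 and 4.01 in WT(HFD) WAT and 4.19, 3.71, 2.80, 4.2 and 4.01 in CD44KO(HFD) WAT. A single low array in each genotype set its spread, and the rest overlapped. The log2 fold change was 0.04 (95% interval -0.65 to 0.73, limma adjusted p = 0.951), and its sign turned to -0.15 without WT(HFD) replicate 1 and under several other settings. Whether the response of Pparg differs from that of Cebpa was not tested.

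GLUT4 and the adiponectin receptor were also higher on average. Slc2a4 (NM_009204, chromosome 11 from 70024145 to 70024204) ranged from 1.96 to 2.97 in WT(HFD) WAT and from 2.70 to 3.59 in CD44KO(HFD) WAT, and 2 WT(HFD) arrays lay within the CD44KO(HFD) range. Its log2 fold change was 0.71 (SE 0.26, limma adjusted p = 0.261, exact permutation p = 0.056), with 1.18 and 0.26 within slides. Adipor2 (NM_197985, brightest probe on chromosome 6 from 119378346 to 119378405) ranged from 5.97 to 6.80 in WT(HFD) WAT and from 6.74 to 7.48 in CD44KO(HFD) WAT, a log2 fold change of 0.61 (SE 0.20, limma adjusted p = 0.235, exact permutation p = 0.024). Its adjusted p was 0.026 in the fit of all 20 arrays, within a range of 0.026 to 0.650. The receptor's value rests on the probe. The second Adipor2 probe, shown above, gave -0.47 (limma adjusted p = 0.650) and correlated with the brightest by -0.104 over the WAT arrays, and the third was well above background on 1 of 5 WAT arrays of each genotype and was not tested.

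**Figure D2:**
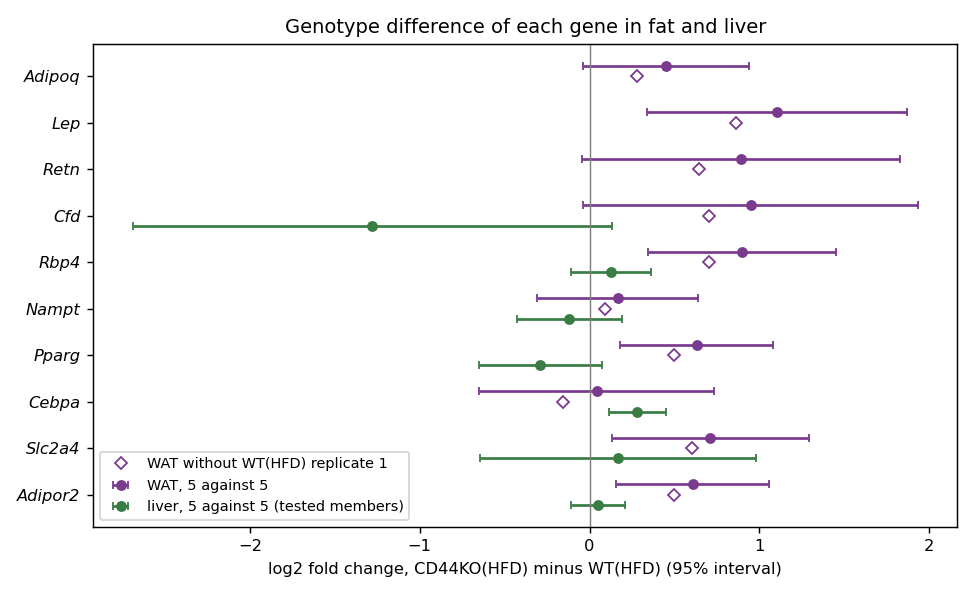
Log2 fold change of each gene, CD44KO(HFD) minus WT(HFD) (x axis), for the 10 genes (y axis). Filled points with bars are the limma estimates with 95% intervals in WAT (purple) and liver (green, only the 7 genes bright enough to test), and open diamonds are the WAT estimates without WT(HFD) replicate 1. All 10 WAT points lie above 0, Cebpa turns to -0.15 without that array, and in liver only Cebpa passed the adjusted threshold.

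Markers of other cells of fat moved beside these values. In the test across all probes none of the markers of 10 cell types passed in WAT. Those of mast cells had a median log2 fold change of -3.27 with 0 of 6 higher, those of mesothelium -2.07 with 0 of 8 higher, those of T and B cells -1.19 with 0 of 8 higher, and those of macrophages -0.30 with 1 of 13 higher. The summed mast cell level was 4.19 to 5.48 in WT(HFD) WAT and 0.40 to 3.41 in CD44KO(HFD) WAT, with no overlap. The summed mesothelial level was 1.83 to 4.18 against 0.59 to 2.24. In the other direction, endothelial markers had a median of 0.65 with 8 of 8 higher and summed levels of 4.07 to 4.79 against 5.10 to 5.82, and hepatocyte markers had a median of 0.81 with 10 of 10 higher and summed levels of 2.49 to 5.67 against 3.91 to 6.08. Fibroblast markers went both ways (median -0.12, 4 of 10 higher), from -1.66 for Pi16 to 0.68 for Pdgfrb, named after their values were seen. Without WT(HFD) replicate 1 the medians were -3.04 for mast cells, -2.08 for mesothelium, -0.85 for T and B cells, -0.38 for macrophages, 0.48 for endothelium and 0.94 for hepatocytes, and 1 mast cell marker then passed. The summed epididymal level was 2.20 on WT(HFD) replicate 1 and -3.23 to -1.12 on the other WAT arrays. The part of these cells in the adipokine values was not tested.

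The genes that adipocytes use beside the 10 stood on the same side in WAT. Of 29 other adipocyte genes, which cover lipid droplets, lipolysis and fatty acid handling, none passed, 28 had a higher mean in CD44KO(HFD) WAT and 1 a lower mean, with a median of 0.52 beside -0.06 over all probes. The exception, named after the values were seen, was S100a1 (-0.40, limma adjusted p = 0.216). Without WT(HFD) replicate 1 the count was again 28 of 29, with a median of 0.49. Among the 31 other secreted factors of fat that were tested, 23 were higher and 8 lower (median 0.15), among 25 other adipogenic regulators 15 and 10 (median 0.09), among 14 adipokine receptors and binding partners 6 and 8 (median -0.16), and among 16 genes of GLUT4 traffic and insulin signaling 10 and 6 (median 0.11). None of these passed in WAT.

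**Figure D3:**
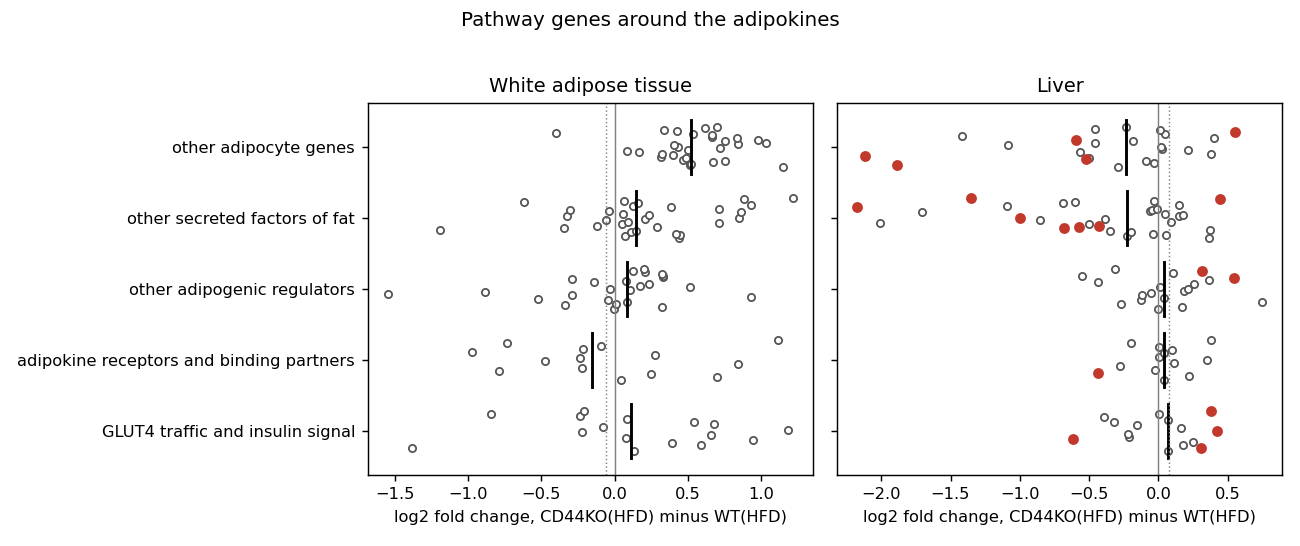
Log2 fold change, CD44KO(HFD) minus WT(HFD) (x axis), of each tested gene in 5 lists around the adipokines (y axis) in WAT (left) and liver (right). Open points did not pass, red points passed an adjusted p of 0.05 by limma, thick black bars are list medians and the dotted line is the median over all probes. In WAT 28 of 29 other adipocyte genes lie above 0 with no red point, and in liver their median is -0.23.

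In liver only Cebpa passed, with a small difference. Of the 10 genes 7 were bright enough to test, 1 passed, and none passed as lower. Of all 24689 probes 3358 passed (13.6%), so a single call among 7 genes is near that share and is no result about them. Of the 7 genes 4 had a higher mean, where 61.3% of all liver probes did. Cebpa, which in liver controls genes of hepatocyte metabolism, read 4.67, 4.65, 4.70, 4.56 and 4.79 in WT(HFD) liver and 4.92, 4.92, 4.89, 5.15 and 4.90 in CD44KO(HFD) liver. The genotypes did not overlap, as for 11.7% of all probes. Its log2 fold change was 0.28 (SE 0.08, limma adjusted p = 0.0384, exact permutation p = 0.0079), a ratio of 1.22, and within the 3 slides it was 0.16, 0.43 and 0.22. Hepatocyte markers had a higher mean in CD44KO(HFD) liver in 10 of 10 cases, with a median of 0.34 and 1 past the threshold, and their part in the Cebpa value was not tested. The other Cebpa probe, the one shown, gave 0.34 (limma adjusted p = 0.0325) and correlated with the first by 0.903 over the liver arrays. The call on the brightest probe depended on single arrays and on the processing. It was lost when any array but CD44KO(HFD) replicate 3 was left out (limma adjusted p between 0.051 and 0.090 in those 9 fits, log2 fold change between 0.23 and 0.31), and over all alternatives its adjusted p ran from 0.033 to 0.657 with no change of sign.

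Among the 7 genes tested in liver adipsin had the widest spread. Cfd read 2.22, 3.60, 4.04, 4.16 and 2.53 in WT(HFD) liver and 0.40, 1.19, 1.83, 3.06 and 3.67 in CD44KO(HFD) liver. Values of both genotypes ran into each other, with 4 of 5 CD44KO(HFD) arrays below the WT(HFD) mean. They differed by a log2 fold change of -1.28 (SE 0.64, 95% interval -2.69 to 0.13, limma adjusted p = 0.195), and the slides gave 0.38, -1.75 and -3.65. Pparg, whose hepatic level is known to follow fat storage, ranged from 2.45 to 3.01 in WT(HFD) liver and from 2.13 to 3.01 in CD44KO(HFD) liver, which differ by -0.29 on the log2 scale (SE 0.16, limma adjusted p = 0.249). The remaining tested genes differed by less. Rbp4 had 0.13 (95% interval -0.11 to 0.36), Adipor2 0.05 (-0.11 to 0.21), Nampt -0.12 (-0.43 to 0.19) and Slc2a4 0.17 (-0.65 to 0.98), with adjusted p-values from 0.443 to 0.787 (limma). The sign of Adipor2 turned under normexp background correction (-0.053) and quantile normalization (-0.093).

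The 3 remaining adipokines were at the edge of detection in liver. Lep was not well above background on any of the 10 arrays, with values from -7.12 to -6.54. Adipoq was well above background on replicate 2 of each genotype, at -4.62 in WT(HFD) and -3.46 in CD44KO(HFD), and these arrays share a slide. The other 8 arrays lay between -7.17 and -5.94, among them replicate 4 of each genotype on that slide. The brightest Retn probe was well above background on WT(HFD) replicate 5 (-4.71) and on CD44KO(HFD) replicates 3 (-2.13) and 5 (-1.80), and these 3 arrays share another slide. WT(HFD) replicate 1 lies on that slide too and read -5.62, not well above background. No Retn array on the other slides was well above background. The overlapping Retn probe was at background on all liver arrays (means of -5.99 and -6.33), and its correlation with the first was -0.304 over the liver arrays. What sets the Retn and Adipoq values on single liver arrays was not tested.

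**Figure D4:**
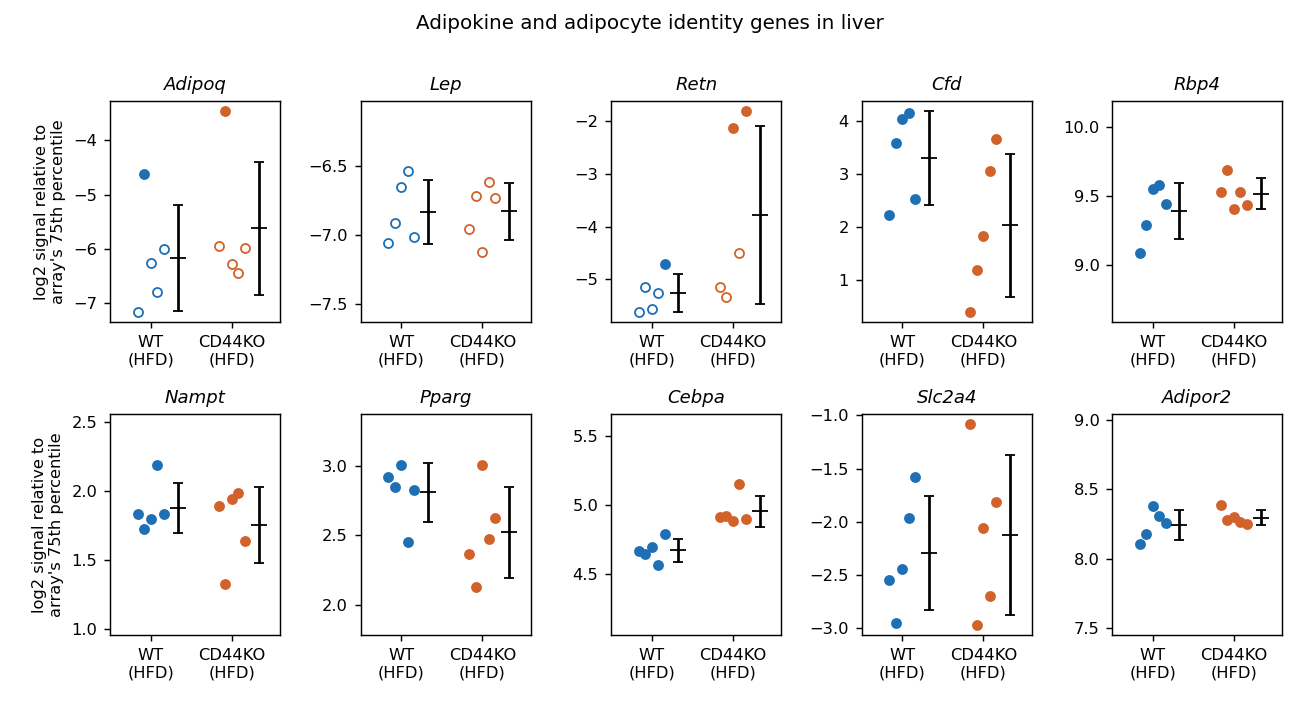
Log2 signal relative to the 75th percentile of the array (y axis, a scale of its own in each panel) of the 10 genes in liver, by genotype (x axis). Each point is 1 array, filled where the probe was well above background and open where it was not, and the black mark with its bars is the mean and SD of 5 arrays. Lep has no filled point, Adipoq has 1 in each genotype, and Cebpa shows 2 groups that do not overlap.

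Around these genes, the liver lists held changes of both directions. Of 23 other adipocyte genes tested in liver 1 rose and 4 fell (median -0.23, beside 0.08 over all probes), where 7.85% of all liver probes passed as higher and 5.75% as lower. Cidec, a lipid droplet protein, fell by 2.12 on the log2 scale (limma adjusted p = 0.0486), the glycerol channel Aqp7 fell by 1.89 (0.0346) and the acute phase protein Orm1 fell by 0.60 (0.0473), while the retinol saturase Retsat rose by 0.55 (0.0209). The fourth that fell, Cavin1, a coat protein of caveolae, was named after its values were seen (-0.52, limma adjusted p = 0.0260). Of 31 other secreted factors 1 rose and 6 fell (median -0.23), led by vaspin (Serpina12, -2.17, limma adjusted p = 0.0085), Wisp2 (-1.35, 0.0251), follistatin-like 1 (Fstl1, -1.0, 0.0197) and C1qtnf5 (-0.68, 0.0251). Of 19 adipogenic regulators 2 rose, the lipogenic factor Srebf1 (0.55, limma adjusted p = 0.0448) and Tcf7l2 (0.31, 0.0321). Appl1, an adaptor of the adiponectin receptors, fell by 0.44 (limma adjusted p = 0.0397) and was the only 1 of 13 receptor and partner genes that passed. The counts of regulators and of receptor and partner genes are near the share of all liver probes that passed (13.6%) and are no result about those lists. In the list of GLUT4 traffic and insulin signaling 3 of 15 genes rose, the glucose transporter Slc2a2 (0.42, limma adjusted p = 0.0260), Vamp2 (0.38, 0.0168) and the insulin receptor substrate Irs1 (0.31, 0.0321), and Pik3r1 fell by 0.61 (0.0481). No alternatives are given for the genes of these lists, and several of their adjusted p-values lie close to 0.05. Liver probes called fell from 3358 to 641 with normexp and to 723 in the fit of all 20 arrays, so single calls may not hold. In the same livers 7 of 10 fibroblast markers and 5 of 12 macrophage markers passed as lower, while 3 of the 12 macrophage markers had a higher mean and the T and B cell markers split into 4 higher and 4 lower, with 2 past the threshold as lower. Their summed levels were 6.54 to 7.06 in WT(HFD) against 5.95 to 6.46 in CD44KO(HFD) liver for fibroblasts and 6.16 to 7.17 against 5.69 to 7.11 for macrophages. Their part in the liver values was not tested.

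Between fat and fatty liver the 10 genes, read by their brightest probes, fell into 3 groups. All 10 passed in WT(HFD) mice, 7 higher and 3 lower in WAT, where 70.5% of the 28989 probes passed (34.3% higher and 36.2% lower). All 10 also passed in CD44KO(HFD) mice, again 7 higher and 3 lower, where 73.7% passed (31.9% higher and 41.8% lower). With a share of that size among all probes, passing is no result about these genes, and the sizes are what separates them. Under normexp background correction the balance was 6515 higher and 11836 lower in WT(HFD) and 6308 higher and 16918 lower in CD44KO(HFD). Tissues were hybridized on separate slides, so that tissue and slide cannot be told apart. The 75th percentile of the signal, on which each array was centred, was 433 to 575 in liver and 1541 to 2792 in WAT.

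Adiponectin, leptin, resistin and GLUT4 formed the group found mainly in fat. Adipoq read 12.74 higher in WT(HFD) WAT than in WT(HFD) liver and 12.64 higher in CD44KO(HFD) WAT. Its liver signal was well above background on 1 of 5 arrays of each genotype, so these values are set mostly against background and are not measured folds. Lep was at background in liver. Its WAT mean lay 631-fold above a liver floor in WT(HFD) mice and 1328-fold above it in CD44KO(HFD) mice. The floor was the lowest signal well above background on each liver array, averaged over the arrays of the genotype. It was -4.74 in CD44KO(HFD), where a Cd44 probe at -4.19 was not well above background, so it is no strict limit of detection. Over the alternatives the Lep difference ran from 7.62 to 12.58 in WT(HFD) and from 8.37 to 13.59 in CD44KO(HFD) on the log2 scale. The folds hold for this processing only and are no lower bounds. Retn read 8.13 and 7.55 higher in WAT on the log2 scale, again set mostly against background. In liver only 1 WT(HFD) array and 2 CD44KO(HFD) arrays had its brightest probe well above background. Slc2a4, measured on all arrays, was 4.68 and 5.22 higher (SE 0.33). In no sample of liver did any of the 4 genes reach its lowest WAT value.

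The second group was closer between the tissues. Cfd was 1.65 higher in WT(HFD) WAT than in WT(HFD) liver (SE 0.58, limma adjusted p = 0.017) and 3.88 higher in CD44KO(HFD) WAT, and the tissues overlapped in WT(HFD). That WT(HFD) call was lost without liver replicate 1 (limma adjusted p = 0.0511) and without WAT replicate 5 (0.0517). Pparg was 0.67 and 1.59 higher in WAT (SE 0.19), overlapping between tissues in WT(HFD), and Nampt was 0.78 and 1.07 higher (SE 0.18). The dimmer Nampt probe, well above background in all groups, gave 2.37 and 2.24 (SE 0.32), so the place of Nampt in this group depends on the probe. In WT(HFD) the calls of Pparg and Nampt by their brightest probes were lost when arrays were centred on their median (limma adjusted p = 0.228 for Pparg and 0.125 for Nampt).

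The third group was higher in liver. Rbp4 read 9.09 to 9.58 in WT(HFD) liver and 4.29 to 5.50 in WT(HFD) WAT, a difference of -4.33 (SE 0.19) or 20.2-fold higher in liver, and in CD44KO(HFD) mice the difference was -3.56, or 11.8-fold. Cebpa was lower in WAT by -0.93 in WT(HFD) and -1.17 in CD44KO(HFD) on the log2 scale, but under quantile normalization the values were -0.01 and -0.33 and neither passed. For Adipor2 the values were -1.82 and -1.27, and under quantile normalization -0.20 in WT(HFD) and, with the sign turned, 0.36 in CD44KO(HFD). The second Adipor2 probe gave -1.54 in WT(HFD) and -2.22 in CD44KO(HFD). The third gave -2.06 and -2.60, but in WAT it was well above background on only 1 of 5 arrays of each genotype. Its values thus rest mostly on background in WAT and are not measured differences.

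**Figure D5:**
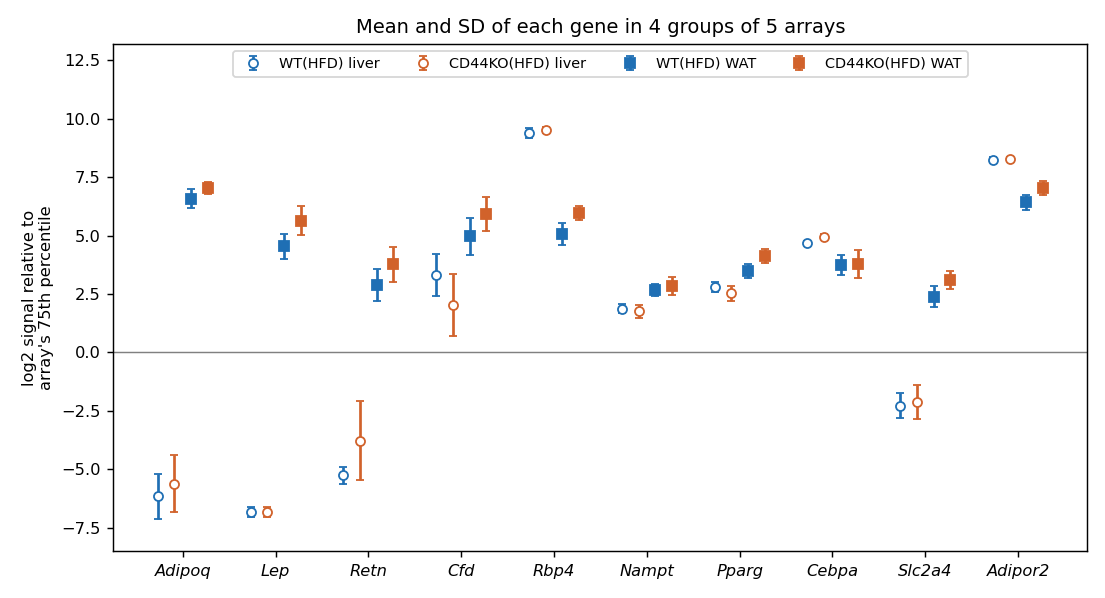
Mean log2 signal relative to the 75th percentile of the array (y axis) of each gene (x axis) in WT(HFD) (blue) and CD44KO(HFD) (orange) liver (open circles) and WAT (filled squares), with SD bars over 5 arrays. Positions are to be compared within a gene only. Adipoq, Lep, Retn and Slc2a4 stand far higher in WAT, Rbp4 stands higher in liver, and the order of Adipor2 in CD44KO(HFD) turned under quantile normalization.

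Whether the genotype acted differently in fat and liver was tested by an interaction over 28989 probes. None of the 10 genes passed, where 1.15% of all probes did, and 5 had an unadjusted p under 0.05 (Lep, Cfd, Rbp4, Pparg and Adipor2), where 15.8% of all probes did. Pparg, with 0.63 in WAT and -0.29 in liver, came closest, at a difference of 0.92 (SE 0.26, limma adjusted p = 0.0892). Its adjusted p was 0.042 with normexp background correction and 0.041 without CD44KO(HFD) liver replicate 3, in a range of 0.041 to 0.414. Cfd had the largest difference, 2.23 (SE 0.82, limma adjusted p = 0.190), and the listed value of Lep was 1.10 (SE 0.38, adjusted p = 0.162, and 0.047 with array weights). Since Lep was at background in liver, its value is in effect the WAT difference and no comparison of the tissues. In the 5 lists around the adipokines 3 genes passed this test. The difference was 2.57 for Wisp2 (limma adjusted p = 0.0084), 2.56 for Aqp7 (0.0368) and 0.97 for C1qtnf5 (0.0445), each with a higher mean in CD44KO(HFD) WAT and a fall in CD44KO(HFD) liver. Cell type markers passed it too, 3 higher and 1 lower of 10 fibroblast markers, 2 lower of 6 mast cell markers, and 1 higher each among the markers of endothelium, macrophages and skeletal muscle, and their part in the result was not tested.

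Correlations between the genes across WAT arrays were also described. Over 10 WAT arrays the 45 pairs of the 10 genes had correlations from -0.196 to 0.982 with a median of 0.794, and over the 9 arrays without WT(HFD) replicate 1 from -0.599 to 0.982 with a median of 0.664. The tightest pairs were Rbp4 with Adipor2 (0.982), Cfd with Slc2a4 (0.966) and Rbp4 with Pparg (0.960), and all of the 7 lowest included Nampt. In liver, where Adipoq, Lep and Retn were near background, the median was 0.037. These are descriptions over arrays that share slides, scaling and 2 genotypes. The level for pairs of all probes was not computed, so the values cannot be called particular to these genes. Among all tested probes with a gene name, the 3 most similar genes of each had correlations of 0.956 to 0.995 over the 10 arrays (0.936 to 0.990 over 9). For Lep they were Fgfrl1 (0.991), Adora1 and Mfng, for Adipoq Psph (0.980), Mmut and Fdxacb1, for Retn Srebf1 (0.980), Nid2 and Cox8b, and for Cfd Hspa2 (0.979) and Slc2a4. For Rbp4 they were Cyb5b (0.995), Kpna6 and Nomo1, for Nampt Fbxl5 (0.971), F2r and Dhx15, for Pparg Cyb5rl (0.993), Myl1 and Mcrip2, and for Cebpa Nrip1 (0.986), Tspan15 and Arhgef11. For Slc2a4 they were Apoc1 (0.972), Cmtm8 and Syt12, and for Adipor2 they were Rbp4, Hmgcs1 (0.982) and Pcyt2.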

How the data were processed

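RNA of liver and WAT from WT(HFD) and CD44KO(HFD) mice was hybridized in 1 colour to 20 Agilent mouse 44k arrays, and each sample took its group, replicate number and slide from its labels. The authors deposited fluorescence intensities from Feature Extraction 9.5, namely the processed signal, mean signal and local background of each spot and its marks for saturation, outlying pixels and brightness well above background. Per the file headers and the values, the processed signal had been corrected for trends within the array and the dimmest spots had been replaced by estimates (2.87% to 26.7% of the spots). No scaling between arrays had been applied. The deposited table of the series holds the same processed signals, and no per-sample column was left unused.

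Signals were put on the log2 scale, outlier spots were left out, each array was centred on its 75th percentile (taken over the 43379 non-control spots), and the remaining spots of each probe were averaged. A probe entered the test if 3 or more of the 5 arrays in any compared group had it well above background. The test was that of limma 3.58.1 (lmFit and eBayes, R 4.3.3, with version 1.17.8 of data.table and 1.5.0 of statmod), with Benjamini-Hochberg adjustment over all tested probes and a threshold of 0.05. Genotypes were compared within each tissue in a fit of its 10 arrays. The tissues and the interaction were compared in a fit of 20 arrays, each taken as independent. Same-numbered liver and WAT arrays of a genotype were not taken as pairs (r of their deviations from -0.20 to 0.14). Single genes had a two-sided exact permutation test. Of the 41174 probes 22951 matched the mouse RefSeq table by accession, and the rest kept the name in the files. The test was also tried on simulated data with known changes.

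The 10 genes and all lists were chosen with earlier results of these data known. Beside the 10 genes, up to 4 genes of each list with the largest change past the threshold in a tissue were named, and the 3 genes most correlated with each of the 10 in WAT, of which 1 is not reported here. Alternatives were normexp background correction (offset 50), quantile normalization, centring on the array median, other filters on dim probes, slide or replicate number as a block, array weights, all 20 arrays in 1 fit, each array left out and other probes of a gene. Those that combine the slide block or normexp with leaving out WT(HFD) WAT replicate 1, and the lists without that array, were added after seeing the data. The p-values measure the spread between the arrays of a group, whose number limits the precision.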

Additional observations from a re-analysis of the deposited data

Results flagged for a closer look

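In 5 of the 40 groups of 5 arrays (10 genes in 4 groups) 1 array lay far from the rest of its group, by a gap of more than 0.71 of the group's range. Chance alone marks about 1 group in 20. In WT(HFD) WAT it was replicate 1 for Lep (3.58, nearest 4.62) and Cebpa (2.95, nearest 3.87), the array that stands apart in its signal distribution. In liver it was CD44KO(HFD) replicate 2 for Adipoq (-3.46, nearest -5.94), CD44KO(HFD) replicate 4 for Cebpa (5.15, nearest 4.92) and WT(HFD) replicate 4 for Nampt (2.19, nearest 1.84). Without the liver array of Cebpa its log2 fold change was 0.23. What sets these arrays apart was not tested.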

How the results depend on the processing

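None of the 10 genes passed in WAT with any single array left out (0 to 0), but 2 passed with array weights and 4 in the fit of all 20 arrays. The count of all WAT probes, 11 in the report, was 35 with normexp, 19 with arrays centred on the median, 3 without a filter on dim probes, 4 with the slide block, 2850 with array weights and 1817 with all 20 arrays. It was 3 to 37 with single arrays left out, 37 without WT(HFD) replicate 1 and 3 to 6 without any other array, and it was 41 with normexp and without that array. In WAT 11 of 214 values of single genes changed sign. For Cebpa they were -0.15 under quantile normalization, -0.24 with the slide block, -0.63 with the slide block and -0.15 with normexp when WT(HFD) replicate 1 was also left out, -0.36 by the other probe and -0.15 to 0.29 with single arrays left out. By their other probes Nampt had -0.12 and Adipor2 -0.47.

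In liver the single call, Cebpa, became 0 with normexp, quantile normalization, median centring, no filter and all 20 arrays, and 0 to 1 with single arrays left out. Liver probes called, 3358 in the report, were 641 with normexp (216 higher and 425 lower, against 1938 and 1420), 1027 with no filter, 723 with all 20 arrays and 924 to 4695 with single arrays left out, lowest without WT(HFD) replicate 2 and highest without CD44KO(HFD) replicate 3. The sign in liver turned for Adipor2 (-0.053 with normexp, -0.093 with quantile normalization, -0.20 by the third probe), for Nampt by its other probe (0.018) and for Slc2a4 (-0.092 to 0.38 with single arrays left out).

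Between tissues 9 to 10 genes passed in WT(HFD) and 10 to 10 in CD44KO(HFD) with single arrays left out, among 19613 to 22134 and 20568 to 22845 probes. Under quantile normalization Adipor2 turned to 0.36 in CD44KO(HFD). For the interaction 1 gene passed with normexp, 1 with array weights and 0 to 1 with single arrays left out, and the 334 probes became 20 with median centring, 77 with no filter, 2438 with array weights and 84 to 582 with single arrays left out. Its sign turned for Retn with normexp (0.22), for Adipoq with median centring (0.37) and left-out arrays (-0.48 to 0.44) and for Cebpa with median centring (0.23) and left-out arrays (-0.44 to 0.0080). The cause was not tested in any of these.

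Replicate numbers are shared by the genotypes but were not taken as pairs, since the labels name nothing that same-numbered mice share and not every pair deviated together (r of -0.21 to 0.09 in WAT and -0.04 to 0.42 in liver, where 3 of 5 pairs were above 0.1). With the replicate number as a block 3 WAT probes, 1329 liver probes and 86 interaction probes passed, with 0 of the 10 genes in WAT, 0 in liver, where the call of Cebpa was lost (adjusted p = 0.121, limma), and 0 in the interaction, and it changed no other call of the 10 genes. The number of arrays and, in liver, the signal of Adipoq, Lep and Retn near background limit what could be detected.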
